A study of Mus musculus with 63 samples.

Results

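The transcripts described here encode the machinery that turns cholesterol into ovarian steroids, 10 genes chosen by name from the 34745 genes of the ovary expression table. They are the import proteins Star and Tspo, the side-chain cleavage enzyme Cyp11a1 with its electron carriers Fdx1 and Fdxr, the progesterone-forming enzyme Hsd3b1, the estrogen-forming enzymes Cyp19a1, Hsd17b1 and Hsd17b7, and the corticosterone-forming enzyme Cyp11b1. All 10 were present in the table and all 10 passed the filter on low counts, which left 17766 genes to test. Bulk RNA was sequenced from ovaries of female C57BL/6 mice, a common inbred strain, that had gone through CUMS (chronic unpredictable mild stress, in which varied mild stressors are applied without a pattern), and from controls. By their titles the mice were 2 or 6 months old and the schedule lasted 8 or 12 weeks. A set is written by both, so that 2M-8W and 2M-12W are the younger mice at either duration, and 6M-8W with 6M-12W the older. Each of these 4 sets has 4 CUMS and 4 control ovary libraries, except 6M-12W with 3 controls, so that 31 libraries in 8 groups were used. The question put by the series' title is how the response of young females compares with that of adults. The labels name no transgene and no drug, and they do not say whether libraries came from separate animals, so p-values measure the spread between these samples. The labels used here give neither estrous stage nor sequencing batch.

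Steroid synthesis begins when cholesterol is carried into the mitochondrion, where side-chain cleavage makes pregnenolone with electrons passed from the reductase Fdxr through the ferredoxin Fdx1. Pregnenolone is then turned into progesterone, the main product of the corpus luteum, or by way of androgens made in theca cells into estrogens, which granulosa cells form with aromatase. Luteinizing hormone drives import and side-chain cleavage, and the mix of follicles and corpora lutea in an ovary changes through the estrous cycle. In whole ovaries fewer cells of a type and less RNA per cell cannot be told apart.

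The ovary libraries held 12536371 to 28777668 counts. Mitochondrial genes took 3.86 to 7.11% of them. In 6M-12W this share was 4.34 to 4.56% in CUMS ovaries against 5.196 to 6.27% in controls, with no overlap. Its part in the results was not tested. Markers of granulosa, theca, luteal cells and oocytes were present in every ovary library. Some libraries carried transcripts of other tissues. The oviduct secretory gene Ovgp1 was at 1899 and 151 CPM (counts divided by the library total and scaled alike in all libraries) in the 2M-8W CUMS ovaries 1 and 3, against 4.21 to 24.6 in the other 6 libraries of that set, and it reached 330 in 2M-12W control 4. In 2M-8W all 3 oviduct markers rose in CUMS (3.96% of all genes did), so the 2M-8W folds are given with and without these ovaries. The summed level of 8 pituitary markers reached 1557 CPM in 2M-12W control ovary 1, with a median of 66.5 over the 31 ovaries and a lowest value of 1.43.

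The promoter windows of 4 members are shown, since of the 6 members with a RefSeq window these 4 have one near the start of the gene in the expression table. They include the members of widest and narrowest spread among the 9 with reads in every ovary (Hsd17b7 and Hsd3b1). Each runs 5′ to 3′ on the gene's strand, from 250 bases before to 50 after a start site given by RefSeq on GRCm38.p6, and lies within 100 bases of the gene's start in the expression table. Capitals mark the GC box GGGCGG and the CCAAT box CCAAT, read on either strand (CCGCCC and ATTGG on the other).
Hsd17b7, chr1:169969156-169969455, minus strand: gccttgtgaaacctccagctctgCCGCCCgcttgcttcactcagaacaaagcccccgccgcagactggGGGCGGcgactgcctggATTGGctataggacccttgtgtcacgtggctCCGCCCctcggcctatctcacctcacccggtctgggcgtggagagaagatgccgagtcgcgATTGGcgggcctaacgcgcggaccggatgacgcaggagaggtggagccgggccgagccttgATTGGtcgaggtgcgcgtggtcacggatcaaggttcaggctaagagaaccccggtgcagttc
Hsd3b1, chr3:98859745-98860044, minus strand: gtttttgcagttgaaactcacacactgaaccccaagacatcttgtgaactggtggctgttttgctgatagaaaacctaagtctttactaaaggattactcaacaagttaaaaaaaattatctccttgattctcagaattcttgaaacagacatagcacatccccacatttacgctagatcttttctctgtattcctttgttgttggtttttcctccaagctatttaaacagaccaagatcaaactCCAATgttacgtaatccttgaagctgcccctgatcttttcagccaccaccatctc
Fdx1, chr9:51963553-51963852, minus strand: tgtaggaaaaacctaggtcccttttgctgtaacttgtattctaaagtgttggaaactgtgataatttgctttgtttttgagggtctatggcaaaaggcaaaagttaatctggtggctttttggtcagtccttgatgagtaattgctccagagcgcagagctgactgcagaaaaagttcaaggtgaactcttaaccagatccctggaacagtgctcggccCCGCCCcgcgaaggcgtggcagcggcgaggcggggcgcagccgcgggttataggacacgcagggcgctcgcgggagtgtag
Fdxr, chr11:115276920-115277219, minus strand: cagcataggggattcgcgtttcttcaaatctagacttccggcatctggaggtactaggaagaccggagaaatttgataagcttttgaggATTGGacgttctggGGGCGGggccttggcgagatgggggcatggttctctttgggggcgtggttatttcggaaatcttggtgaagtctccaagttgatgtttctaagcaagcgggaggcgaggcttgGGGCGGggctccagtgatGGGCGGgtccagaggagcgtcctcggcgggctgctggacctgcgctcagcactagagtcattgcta

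Base composition set the windows apart. Hsd17b7 held 64.7% G and C with 27 CG pairs, Fdxr 56.3% with 17, Fdx1 52% with 16 and Hsd3b1 38.7% with 2. GC boxes numbered 3 in Hsd17b7, 3 in Fdxr, 1 in Fdx1 and 0 in Hsd3b1, and 35.7% of all 32851 windows of this length in the table hold at least 1. CCAAT boxes numbered 3 in Hsd17b7, 1 in Hsd3b1, 1 in Fdxr and 0 in Fdx1, against 37.4% of all windows with at least 1. Of the other letters searched on both strands, GATAA (25.4% of windows) was found once each in Hsd3b1, Fdx1 and Fdxr, and TGACG (20.8%) once in Hsd17b7. The nuclear receptor half-site AGGTCA (16.3%), its longer form CAAGGTCA, which contains it (1.56%), TATAAA (13.6%), TGACGTCA (1.79%), which contains TGACG, and the sterol regulatory element TCACNCCAC (1.24%) were not in these 4 windows.

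By level, Hsd3b1 and Cyp11a1 stood first. On the deposited FPKM scale, which divides by gene length and so allows genes to be compared, the median over 31 ovaries was 2258 for Hsd3b1, 945 for Cyp11a1 and 729 for Fdx1. Star stood at 205, Hsd17b1 at 175, Fdxr at 129 and Tspo at 66.0. Hsd17b7 (33.8) and Cyp19a1 (29.1) followed, and Cyp11b1 was far below at 0.132. The members also differed in how much they varied: the highest ovary exceeded the lowest, in CPM, by 87.1 times for Hsd17b7, 22.1 for Cyp19a1 and 16.3 for Star. The ratio was 5.65 for Tspo, 4.27 for Hsd17b1, 3.82 for Cyp11a1, 3.12 for Fdx1, 2.46 for Fdxr and only 1.63 for Hsd3b1. When the 8 groups were ordered by mean, neighbours overlapped in every case but 1 (Hsd17b7, 6M-12W CUMS against 6M-8W control).

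**Figure D1:**
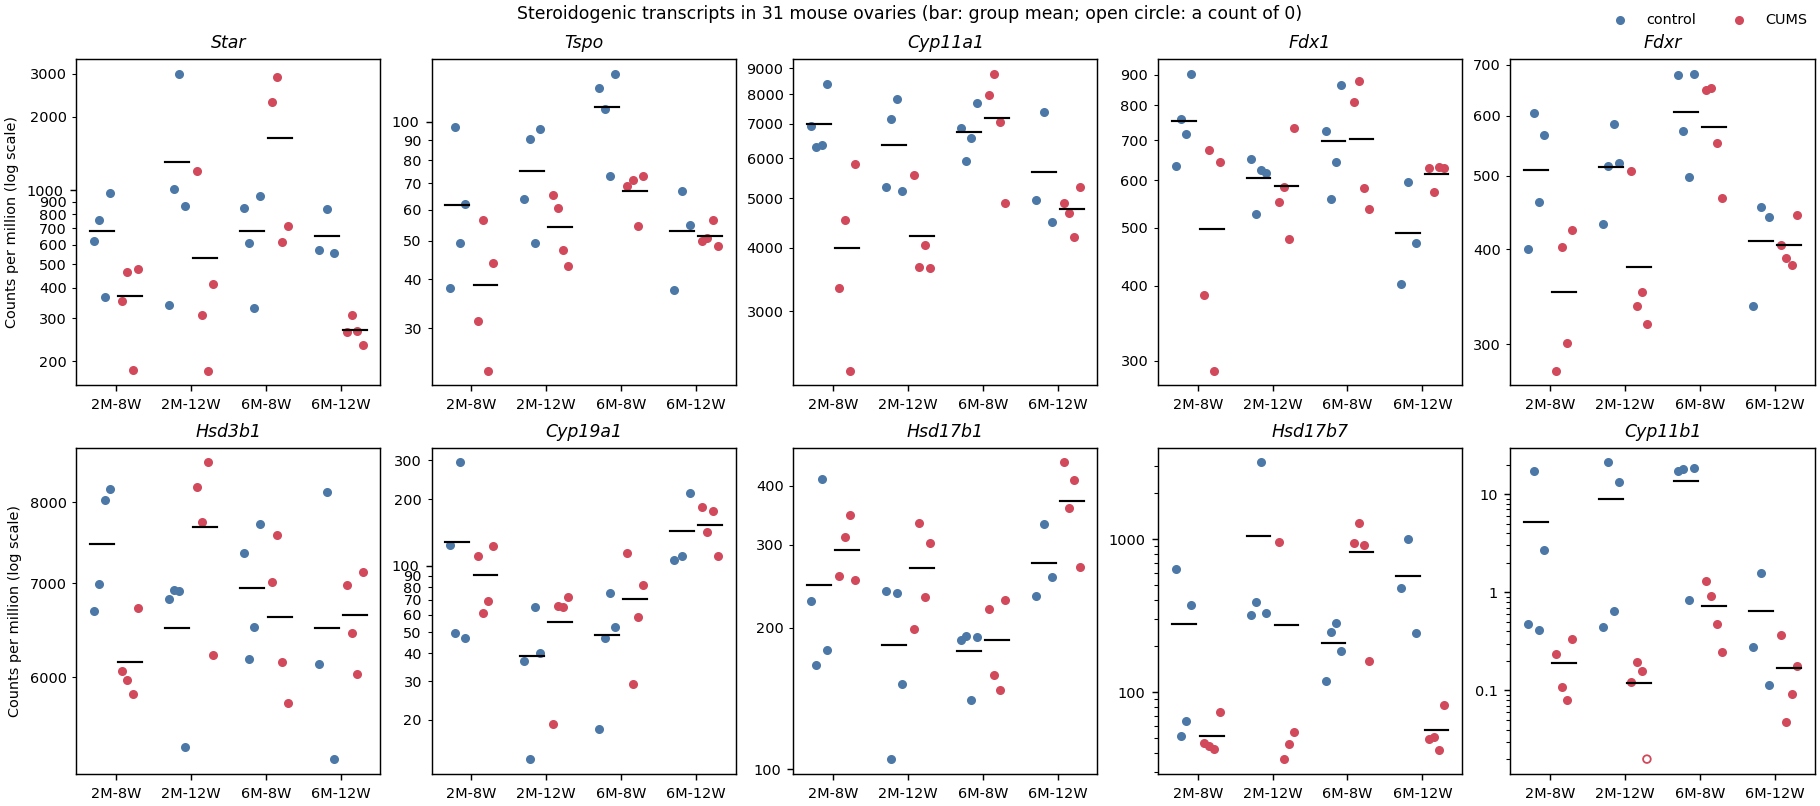
CPM on a log scale for each of the 10 transcripts in every ovary library, by set, with control in blue, CUMS in red and a bar at the group mean. Hsd3b1 keeps within 5247 to 8537 CPM while Hsd17b7 ranges from 36.6 to 3185, and Cyp11b1 reaches 13.4 CPM or more in 6 ovaries, all controls.

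Averaged over the 4 sets, with each set's CUMS ovaries against its own controls, 4 of 9 transcripts fell and none rose: Tspo, Cyp11a1, Fdxr and Hsd17b7. Cyp11b1 is left out of this and every later count, except where its inclusion is stated, and is described without a test. It passed the filter on low counts mainly through control ovaries. The test was edgeR's quasi-likelihood F test with Benjamini-Hochberg adjustment over all 17766 genes at 0.05, of which 11.5% fell and 8.86% rose in this comparison. The median log2 fold (CUMS over control) of the 9 was -0.29, against 0.01 over all genes tested. By step, those that fell were 1 of 2 import proteins, 2 of 3 side-chain cleavage proteins and 1 of 3 estrogen-forming enzymes, and Hsd3b1 did not pass. Without the 2M-8W CUMS ovaries 1 and 3, or without 6M-12W control 2, the count is 2, Tspo and Cyp11a1.

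Within single sets fewer passed. In 2M-8W Cyp11a1 and Fdxr fell and none rose (2.31% of all genes fell, 3.96% rose). In 2M-12W none of the 9 passed in edgeR (4.15% fell and 2.58% rose). At an unadjusted p under 0.05 were 4 of the 9, and 4076 of all 17766 genes. DESeq2 called 2 of the 9, and 1737 of all genes. No member of the 9 passed in the 6M-8W comparison in edgeR or DESeq2 (0.563% fell and 0.557% rose). Of the 9, 3 were at an unadjusted p under 0.05, as were 2757 of all 17766 genes. In 6M-12W Hsd17b7 fell (6.26% of all genes fell and 5.18% rose). The medians of the 9 were -0.63 and -0.48 for the younger mice at the shorter and longer duration, and 0.11 and -0.06 for the older. The 2M-12W count is 4 without CUMS ovary 1. The range of CUMS ovaries lay apart from that of controls, in CPM, for Cyp11a1 in 2M-8W (8.8% of all genes), for none of the 9 in 2M-12W (11.6%), for Tspo in 6M-8W (10.4%), and for Star and Hsd17b7 in 6M-12W (32%).

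The 2M-8W result depended on single libraries, among them the ovaries with oviduct transcripts. None of the 9 passed in edgeR without control 2, control 4, CUMS 1 or CUMS 3, each left out alone. The same held without both CUMS ovaries 1 and 3, which leaves only CUMS 2 and 4. With fewer libraries a call can be lost even at the same fold, but the folds of the 9 also became smaller in size. Without both, Cyp11a1 went from -0.84 to -0.47 (edgeR adjusted p = 0.527), Fdxr from -0.57 to -0.33 (0.570) and Fdx1 from -0.63 to -0.23 (0.734). Star was then -0.57 (0.827), Tspo -0.34 (0.736) and Hsd3b1 -0.27 (0.600). Hsd17b7 was -2.28 (0.571, against -2.47 and 0.119 with all libraries), Cyp19a1 -0.50 (0.843) and Hsd17b1 0.15 (0.908). The mitochondrial share was 6.43 and 7.11% in these ovaries and 3.86 to 5.77% in the other 6 of the set. With the replicate number as a block, Cyp11a1 was the only 1 of the 9 past the test. No label says that these numbers mark pairs.

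**Figure D2:**
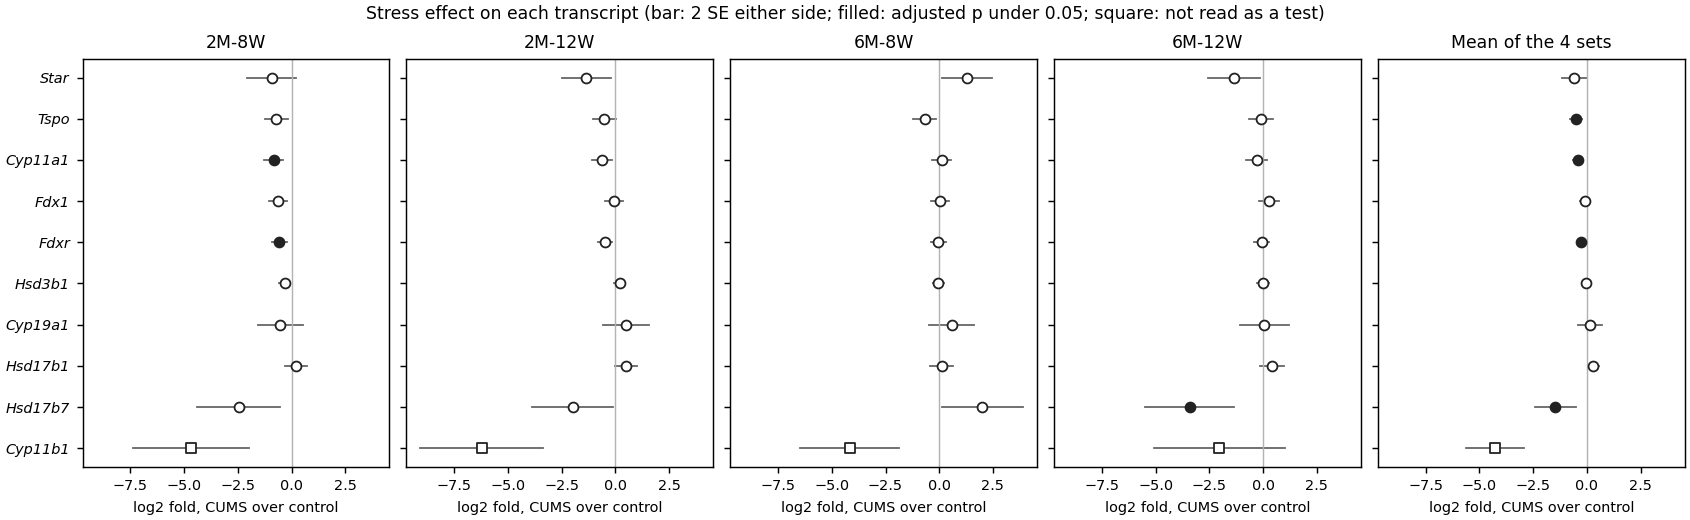
log2 fold of CUMS over control for each transcript in the 4 sets and in their mean, on 1 shared axis, with bars of 2 SE on either side and filled points where the adjusted p is under 0.05. In the 4-set mean Tspo, Cyp11a1, Fdxr and Hsd17b7 are filled and lie below 0, Cyp11b1 is drawn as a square with no test, and Star and Hsd17b7 lie on opposite sides of 0 in 6M-8W and 6M-12W.

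The import step came first. Star, the acute regulatory protein that moves cholesterol to the inner mitochondrial membrane and the step that luteinizing hormone switches on fastest, is ENSMUSG00000031574 on chromosome 8 at 25808474 to 25814723 (GRCm38, plus strand). In 2M-8W it was at 623, 755, 366 and 979 CPM in controls and at 353, 464, 184 and 478 in CUMS ovaries. In 2M-12W the controls were at 341, 1013, 2993 and 862.5 CPM and the CUMS ovaries at 1203, 309, 183 and 414. Each CUMS ovary lay below its control mean in both sets, yet the groups overlapped, and neither fold passed (-0.92 ± 0.57 SE, adjusted p = 0.340 with edgeR, and -1.35 ± 0.57, adjusted p = 0.152, or -2.15 and 0.0245 without 2M-12W CUMS ovary 1). In 6M-8W the controls were at 846, 612, 330 and 946 CPM and the CUMS ovaries at 2300, 2916, 617 and 716. In 6M-12W the controls were at 572, 837 and 552 CPM and the CUMS ovaries at 263, 308, 267 and 234. In the first of these the highest values were CUMS ovaries, and in the second all 4 CUMS ovaries lay below all 3 controls. The folds were 1.29 ± 0.57 (edgeR adjusted p = 0.270) and -1.33 ± 0.61 (adjusted p = 0.152). The second was -1.33 with an adjusted p of 0.00475 when only the 2 groups of that set were fitted in edgeR.

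The Star response at 6 months differed between durations. The 12-week fold minus the 8-week fold was -2.62 ± 0.84 (edgeR adjusted p = 0.0480), in a comparison where 8.74% of all genes passed in either direction. This call is at the edge of the threshold: it is lost without any 1 of 13 of the 15 libraries (adjusted p from 0.0502 to 0.119), with no filter on low counts and with the replicate number as a block. Star did not pass in the 4-set mean (-0.58 ± 0.29, edgeR adjusted p = 0.157, lower in 13 CUMS ovaries of 16), but did so without 2M-12W CUMS ovary 1 (-0.78, adjusted p = 0.0372).

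Tspo, a cholesterol-binding protein of the outer mitochondrial membrane that many cell types make, is ENSMUSG00000041736 on chromosome 15 at 83563573 to 83574201 (plus strand). In 2M-8W controls it was at 37.9, 97.3, 49.3 and 62.1 CPM, and in CUMS ovaries at 31.3, 56.4, 23.5 and 43.8. The 2M-12W controls stood at 63.9, 90.6, 49.3 and 96.0 CPM and the CUMS ovaries at 65.2, 60.5, 47.3 and 43.2. The highest Tspo of each set was a control, and the rest overlapped. In 6M-8W controls it was at 122, 108, 73.2 and 132 CPM and in CUMS ovaries at 69.0, 71.3, 54.4 and 72.8. In 6M-12W controls it was at 37.6, 66.7 and 54.9 CPM and in CUMS ovaries at 49.97, 50.7, 56.3 and 48.6. All 6M-8W CUMS ovaries lay below all their controls, and in 6M-12W the groups overlapped. No single set passed (-0.70, -0.52, -0.68 and -0.09 in set order, edgeR adjusted p = 0.106, 0.243, 0.199 and 0.871), though 2M-8W did without control 1 (0.0495) or CUMS 2 (0.0356). In the 4-set mean Tspo fell by 0.50 ± 0.13 on the log2 scale (29.2% lower, edgeR adjusted p = 0.00961), lying below the control mean in 15 of 16 CUMS ovaries. That call held under all 37 alternatives run. Mcat overlaps Tspo on the other strand at 22.5 to 32.6 CPM, and the labels do not say whether counting used strand.

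The side-chain cleavage step had the enzyme and its reductase lower and the ferredoxin not past the test. Cyp11a1, the mitochondrial cytochrome P450 that makes pregnenolone, is ENSMUSG00000032323 on chromosome 9 at 58006411 to 58027023 (plus strand). In 2M-8W controls it was at 6940, 6298, 6370 and 8383 CPM, and in CUMS ovaries at 3335, 4528, 2297 and 5849. All CUMS ovaries lay below all controls, and Cyp11a1 fell by 0.84 ± 0.23 on the log2 scale (44.1% lower, edgeR adjusted p = 0.0316). The lowest pair, 2297 and 3335 CPM, are the ovaries with oviduct transcripts. The call is lost without either of them, without control 2 or without control 4 (adjusted p from 0.0582 to 0.128), without both of them (0.527), or with only the groups of this set in the fit (0.202). In 2M-12W controls Cyp11a1 was at 5262, 7152, 7840 and 5170 CPM and in CUMS ovaries at 5547, 3664, 4048 and 3647. Here 3 CUMS ovaries lay below all controls and the fold did not pass (-0.63 ± 0.23, edgeR adjusted p = 0.0896, or 0.0461 without CUMS ovary 1 and 0.04998 with DESeq2).

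At 6 months Cyp11a1 showed less. In 6M-8W it was at 6860, 5908, 6582 and 7680 CPM in controls and 7992, 8775, 7068 and 4897 in CUMS ovaries. In 6M-12W it was at 4972, 7402 and 4492 CPM in controls and 4890, 4676, 4195 and 5268 in CUMS ovaries. The groups overlapped in both sets, with folds of 0.11 ± 0.23 (edgeR adjusted p = 0.858) and -0.29 ± 0.24 (adjusted p = 0.478). In the 4-set mean Cyp11a1 fell by 0.41 ± 0.12 (24.8% lower, edgeR adjusted p = 0.0127, lower in 13 of 16), under all 37 alternatives. At 8 weeks the 6-month minus the 2-month effect on Cyp11a1 did not pass (0.95 ± 0.32, edgeR adjusted p = 0.136).

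Fdxr, the flavoprotein that takes electrons from NADPH for side-chain cleavage, is ENSMUSG00000018861 on chromosome 11 at 115268024 to 115277050 (minus strand). In 2M-8W it was at 400, 605, 462 and 566 CPM in controls and 277, 403, 302 and 425 in CUMS ovaries. In 2M-12W it was at 433, 516, 585.5 and 520 CPM in controls and 507, 337, 352 and 319 in CUMS ovaries. CUMS ovaries filled the low end of both sets, with some overlap. Fdxr fell in 2M-8W by 0.57 ± 0.17 (32.4% lower, edgeR adjusted p = 0.0420) and did not pass in 2M-12W (-0.48 ± 0.17, adjusted p = 0.0760), where it passed without CUMS 1 (0.0159) or control 1 (0.0457) and with DESeq2 (0.0430). In 6M-8W (498 to 681 CPM in controls, 467 to 652 in CUMS) and 6M-12W (337 to 454 and 382 to 444) the groups overlapped, with folds of -0.04 and -0.06 (edgeR adjusted p = 0.939 and 0.862). In the 4-set mean Fdxr fell by 0.29 ± 0.08 (edgeR adjusted p = 0.0167, lower in 13 of 16). The 2M-8W call is lost without control 2, control 4, CUMS 1 or CUMS 3 (adjusted p from 0.128 to 0.154), without both of these CUMS ovaries (0.570), with only the groups of this set (0.206), with no filter on low counts (0.0527) and with the replicate block (0.0532). So is the call of the mean, without 6M-12W control 2 (0.0510) or without the 2M-8W CUMS ovaries 1 and 3 (0.0545).

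Fdx1, the ferredoxin between Fdxr and Cyp11a1, is ENSMUSG00000032051 on chromosome 9 at 51943307 to 51963533 (minus strand). In 2M-8W it was at 634, 760, 716 and 903 CPM in controls and at 386, 673, 289 and 645 in CUMS ovaries, with the lowest pair again CUMS 1 and 3. The fold of -0.63 ± 0.21 did not pass (edgeR adjusted p = 0.0683), and passed without CUMS 2 (0.0238) or CUMS 4 (0.0257) and with DESeq2 (0.0363). Without CUMS 1 and 3 it was -0.23 (0.734). In the other sets it was at 527 to 651 and 480 to 732 CPM (2M-12W, controls then CUMS), 559 to 867 and 538 to 879 (6M-8W) and 402 to 597 and 574 to 631 (6M-12W). These groups overlapped and the folds were -0.08, 0.03 and 0.28 (edgeR adjusted p = 0.857, 0.962 and 0.454). The 4-set mean was -0.10 ± 0.11 (edgeR adjusted p = 0.543), with an interval of 2 SE from -0.31 to 0.11.

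Hsd3b1 varied least of the 10. It turns pregnenolone into progesterone in the mouse gonad and adrenal, and is ENSMUSG00000027871 on chromosome 3 at 98852194 to 98859794 (minus strand). It was at 6685, 6988, 8029 and 8175 CPM in 2M-8W controls and 6062, 5978, 5838 and 6721 in CUMS ovaries, an overlap at the edge (-0.31 ± 0.13, edgeR adjusted p = 0.139). The 2M-12W controls were at 6827, 6926, 6910 and 5349 CPM and the CUMS ovaries at 8200, 7739, 8537 and 6223, so 3 CUMS ovaries lay above all controls (0.19 ± 0.13, edgeR adjusted p = 0.390). At 6 months the groups overlapped throughout (6189 to 7722 and 5751 to 7581 CPM in 6M-8W, 5247 to 8134 and 6031 to 7136 in 6M-12W). The 4-set mean was -0.04 ± 0.07 (edgeR adjusted p = 0.675), an interval of 2 SE from -0.18 to 0.09. Other genes of its family were low: Hsd3b6 at 0.640 to 2.85 CPM and Hsd3b2, Hsd3b3, Hsd3b4 and Hsd3b5 at or below 0.239. How any reads shared by these genes were assigned is uncertain.

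Of the estrogen-forming enzymes Cyp19a1 and Hsd17b1 passed in no set. Cyp19a1, the aromatase of granulosa cells, is ENSMUSG00000032274 on chromosome 9 at 54165937 to 54193442 (minus strand). It was at 124, 49.5, 293 and 46.9 CPM in 2M-8W controls and 110, 60.7, 69.1 and 123 in CUMS ovaries. In 2M-12W it was at 37.0, 13.3, 64.9 and 40.0 CPM in controls and 19.2, 65.4, 64.9 and 71.9 in CUMS ovaries. Libraries of 1 group differed by up to 6.26 times, and the groups overlapped. In 6M-8W it was at 18.1, 47.1, 75.3 and 52.7 CPM in controls and 114, 29.1, 58.4 and 81.8 in CUMS ovaries. In 6M-12W it was at 105.5, 111 and 214 CPM in controls and 184, 142, 176 and 111 in CUMS ovaries. The 6M-12W ovaries of both arms were the group pair with the highest means, 144 ± 61.4 (SD, n = 3) and 153 ± 33.8 (n = 4). The folds were -0.52, 0.48, 0.57 and 0.06 in set order and 0.15 ± 0.27 in the mean, none past the test (edgeR adjusted p = 0.582, 0.635, 0.653, 0.960 and 0.741).

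Hsd17b1, which reduces estrone to estradiol in granulosa cells, is ENSMUSG00000019301 on chromosome 11 at 101078411 to 101080527 (plus strand). Its folds were above 0 in all 4 sets, 0.21, 0.50, 0.11 and 0.40, and none passed (edgeR adjusted p = 0.668, 0.247, 0.885 and 0.381). Group means in controls and CUMS were 247 ± 115 and 292 ± 45.1 CPM (SD, n = 4 each) in 2M-8W and 183 ± 66.2 and 267 ± 62.5 in 2M-12W. They were 178 ± 25.3 and 188 ± 41.5 in 6M-8W and 274 ± 51.7 (n = 3) and 372 ± 77.95 in 6M-12W, with overlap in every set. In the 4-set mean the fold was 0.30 ± 0.13 (edgeR adjusted p = 0.102, higher in 13 of 16 CUMS ovaries), and it passed without 2M-8W control 3 (0.40, adjusted p = 0.0145).

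Of the 9 members with reads in every ovary, Hsd17b7 differed most between ovaries. It serves as a reductase of estrone, abundant in the corpus luteum of rodents, and also as a step of cholesterol synthesis, and is ENSMUSG00000026675 on chromosome 1 at 169949535 to 169969241 (minus strand), with the GC-rich promoter window printed above. In 2M-8W it was at 638, 51.5, 65.1 and 371 CPM in controls and 46.7, 44.7, 42.5 and 74.3 in CUMS ovaries. In 2M-12W it was at 318, 387, 3185 and 328 CPM in controls and 963, 36.6, 45.7 and 55.2 in CUMS ovaries. In each of these sets 3 CUMS ovaries were at or below 55.2 CPM. The 2M-8W groups overlapped through controls at 51.5 and 65.1 CPM, and 1 CUMS ovary of 2M-12W stood above 3 of its controls. In 6M-8W it was at 118, 249, 286 and 187 CPM in controls and 952, 1272, 925 and 160 in CUMS ovaries. In 6M-12W it was at 479, 999 and 245 CPM in controls and 49.8, 50.7, 41.8 and 83.2 in CUMS ovaries. So 3 CUMS ovaries were above all controls in 6M-8W, and all 4 were below all controls in 6M-12W.

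Hsd17b7 fell in 6M-12W by 3.41 ± 1.03 on the log2 scale (90.6% lower, edgeR adjusted p = 0.0321). It did not pass in 2M-8W (-2.47 ± 0.97, adjusted p = 0.119), 2M-12W (-1.99 ± 0.94, 0.204) or 6M-8W (2.01 ± 0.94, 0.303). At 6 months the 12-week minus the 8-week stress effect was -5.42 ± 1.40 (edgeR adjusted p = 0.020), 1 of 2 members called in that comparison beside Star. In the 4-set mean it fell by 1.46 ± 0.47 (63.7% lower, edgeR adjusted p = 0.0287, lower in 13 of 16). Single libraries decided parts of this. The 6M-12W call is lost in 6 of 7 fits that leave out 1 library (adjusted p from 0.0605 to 0.158). The call of the mean is lost without 2M-8W control 1 (-1.26, 0.0530), 2M-12W control 3 (-1.05, 0.0795) or 6M-12W control 2 (-1.28, 0.0721), and without the 2M-8W CUMS ovaries 1 and 3 (-1.42, 0.0646), and the duration difference without 6M-12W control 2 (-4.70, 0.0653). Without 2M-12W CUMS ovary 1 the 2M-12W fold was -4.57 (adjusted p = 0.00432).

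Luteal markers also differed between arms. The summed CPM of 6 luteal markers (Lhcgr, Prlr, Ptgfr, Akr1c18, Sfrp4 and Parm1) was 3344 to 4156 in 6M-8W CUMS ovaries and 1519 to 2757 in controls, and 776 to 1460 and 2461 to 4969 in 6M-12W. In 2M-8W it was 502 to 3936 in CUMS and 1862 to 4588 in controls, and in 2M-12W 625.4 to 1958 and 1885 to 5073. The luteal sums of the arms did not overlap in either 6-month set, higher in CUMS at 8 weeks and lower at 12. For scale, the ranges of 10.4% of all single genes lay apart in 6M-8W and of 32% in 6M-12W. Sfrp4 alone was at 1083 to 2074 CPM in 6M-8W CUMS ovaries and 391 to 1356 in controls, with overlap. No luteal marker was at 0 in any ovary. Of the 6 markers, 2 fell in 2M-8W (2.31% of all genes fell), 1 in 2M-12W (4.15%), none in 6M-8W in edgeR (0.563%), 3 in 6M-12W (6.26%) and 4 in the 4-set mean (11.5%), with none rising. Of the theca markers 4 of 4 rose in the 4-set mean (8.86% of all genes rose), with sums of 895 to 1108 CPM in 6M-12W CUMS against 226 to 434 in controls. The granulosa markers, of which 3 of 8 rose in that mean, summed to 6216 to 7868 CPM in 6M-12W CUMS and 4053 to 4428 in controls.

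Other marker lists differed between arms as well. Oocyte sums were 373 to 432 CPM in 2M-12W CUMS ovaries and 247 to 331 in controls, and 4 of 8 oocyte markers rose in 6M-12W (5.18% of all genes rose). Endothelial sums were 277 to 309 against 323 to 399 in 2M-8W and 282 to 316 against 334 to 419.5 in 6M-12W, CUMS then controls. In 6M-8W the stromal sums were 1073 to 1432 CPM in CUMS and 1631 to 1875 in controls, and the macrophage and leukocyte sums 438 to 507 and 539 to 760. Adipose sums in 6M-12W were 51.6 to 70.2 CPM in CUMS and 30.9 to 39.7 in controls. Of 6 pituitary markers tested 4 fell in 2M-12W (4.15% of all genes fell), where the sums were 47.8 to 55.6 CPM in CUMS and 61.3 to 1557 in controls. The other way round, they were 42.9 to 78.9 against 1.43 to 42.7 in 2M-8W and 79.8 to 118 against 39.2 to 48.6 in 6M-12W. These sums moved with the arms beside the members, and their part in the results was not tested.

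Cyp11b1, the enzyme that makes corticosterone in the adrenal cortex, is ENSMUSG00000075604 on chromosome 15 at 74834125 to 74841643 (minus strand). It passed the filter on low counts mainly through control ovaries, though not only those in which it was high. Its values are therefore given as a description. Its reads summed over a group were 444 in controls and 14 in CUMS for 2M-8W, 719 and 9 for 2M-12W, 984 and 61 for 6M-8W, and 54 and 14 for 6M-12W. In 2M-8W it was at 0.471, 17.0, 0.418 and 2.70 CPM in controls and 0.233, 0.108, 0.0798 and 0.333 in CUMS ovaries. In 2M-12W it was at 0.439, 21.01, 0.643 and 13.4 CPM in controls and 0.121, 0.197, 0.157 and 0 in CUMS ovaries. All CUMS ovaries lay below all controls in both sets, while the controls split into high and low ones. In 6M-8W it was at 17.1, 18.2, 0.840 and 18.6 CPM in controls and 1.29, 0.916, 0.475 and 0.249 in CUMS ovaries. In 6M-12W it was at 0.279, 1.56 and 0.114 CPM in controls and 0.365, 0.0474, 0.0914 and 0.176 in CUMS ovaries. The first overlap rests on 1 control at 0.840 CPM, and in the second no ovary of either arm was high.

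The fitted log2 folds, given without a test, were -4.69 and -6.21 in the younger mice (8 then 12 weeks), -4.17 and -2.03 in the older and -4.28 in the 4-set mean. All 16 CUMS ovaries lay below their control mean, but the highest controls raise that mean, and low controls lay below it as well. In 6M-12W the CUMS ovary at 0.365 CPM lay above controls at 0.279 and 0.114. Single controls carried much of these folds: without 2M-8W control 2 the fold there was -2.65. Adrenal cortex was checked by its markers: Cyp21a1 was at 0 in 19 of 31 ovaries and at most 0.162 CPM, Cyp11b2 at 0 in 26 and at most 0.0985, and Mc2r at 0 in 8 and at most 0.467. Mrap, an accessory protein of melanocortin receptors, was at 10.2 to 123 CPM, and was the only one of these 4 to pass the filter on low counts. It fell in 2M-8W, in 2M-12W and in the 4-set mean. The summed level of the 4 was nearly all Mrap. This sum was 10.2 to 40.0 CPM in 2M-8W CUMS and 48.9 to 113 in controls, and 16.1 to 43.5 and 44.0 to 122 in 2M-12W. In the older mice it was 46.1 to 86.9 and 49.3 to 123 at 8 weeks, and 26.0 to 32.3 and 39.8 to 54.9 at 12. Gml2, which overlaps Cyp11b1 on the other strand, was at most 0.0380 CPM.

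The ovaries with high Cyp11b1 were also those with the most Tspo. Cyp11b1 was at 13.4 to 21.01 CPM in 6 control ovaries and at most 2.70 in the other 25, and the same 6 held the 6 highest Tspo levels, from 90.6 to 132 CPM against at most 73.2 elsewhere. They are 2M-8W control 2, 2M-12W controls 2 and 4, and 6M-8W controls 1, 2 and 4. These ovaries were ranked after their values were seen, and no test was made of them.

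**Figure D3:**
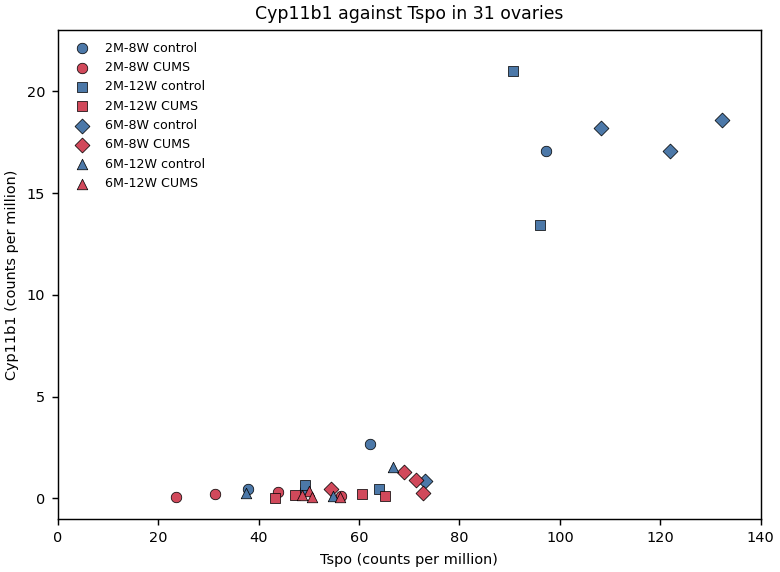
Cyp11b1 against Tspo, both in CPM, 1 point per ovary library, with the set by shape and the arm by colour (control blue, CUMS red). The 6 ovaries at 13.4 CPM or more of Cyp11b1 are controls and have 90.6 CPM or more of Tspo, and the other 25 lie at or under 2.70 and 73.2.

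Stress effects were also compared between ages and durations, and controls between ages. No member passed the difference between durations at 2 months in edgeR (0.501% of all genes passed). There 1 member was at an unadjusted p under 0.05, against 2280 of all genes. At 8 weeks the difference between ages had no member past the test, as no gene in the table passed in edgeR (0%, against 2752 genes at an unadjusted p under 0.05 and 541 by DESeq2). Of the 9 members, 5 were at an unadjusted p under 0.05 there, and the median was 0.66. Hsd17b7 (4.48 ± 1.35, edgeR adjusted p = 0.102) and Star (2.21 ± 0.81, 0.175) had the largest. At 12 weeks the same difference passed for no gene in edgeR (0%, 2043 genes at an unadjusted p under 0.05 and 86 by DESeq2) and the median of the 9 was 0.02. Between 6-month and 2-month controls no member passed in edgeR and none had an unadjusted p under 0.05, where 0.287% of all genes passed (153 genes by DESeq2). A p that misses the threshold does not show that the levels were alike: for Hsd17b7 the difference between control ages was -0.65 ± 0.68.

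The members were then followed across individual ovaries. Deviations of log2 CPM from the group mean were correlated for the 36 pairs of 9 members, with Cyp11b1 left out because its values fall into separate high and low ovaries, and p-values came from 100000 permutations within groups, adjusted over the 36 pairs. Of these, 12 pairs passed, all above 0, and none passed below 0. Cyp11a1 and Hsd3b1 had Pearson's r = 0.70 (permutation p = 2e-05, adjusted 0.0006; Spearman's rho 0.75, adjusted 0.00072), which was 0.76 without the 2 ovaries farthest from the median. Cyp11a1 also varied with Fdxr (r = 0.72, permutation p = 0.00026, adjusted 0.00187, rho 0.73) and with Fdx1 (r = 0.69, permutation p = 0.00338, adjusted 0.0174, rho 0.57). Its r was 0.68 with Star (permutation p = 5e-05, adjusted 0.0006, rho 0.74) and 0.64 with Hsd17b7 (permutation p = 5e-05, adjusted 0.0006, rho 0.71). The Star and Fdxr pair had the highest r, 0.73 (permutation p = 9e-05, adjusted 0.00081, rho 0.72). Star and Hsd17b7 had r = 0.63 (permutation p = 0.00737, adjusted 0.0257, rho 0.54), which was 0.42 without 2 ovaries. Cyp19a1 and Hsd17b1, both of granulosa cells, were correlated with each other (r = 0.61, permutation p = 0.00475, adjusted 0.0214, rho 0.51) and with no other member past the test. The values of a pair come from the same library and share its depth and composition. The share of all gene pairs that would pass was not computed. The 12 pairs are therefore not read as particular to these members.

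**Figure D4:**
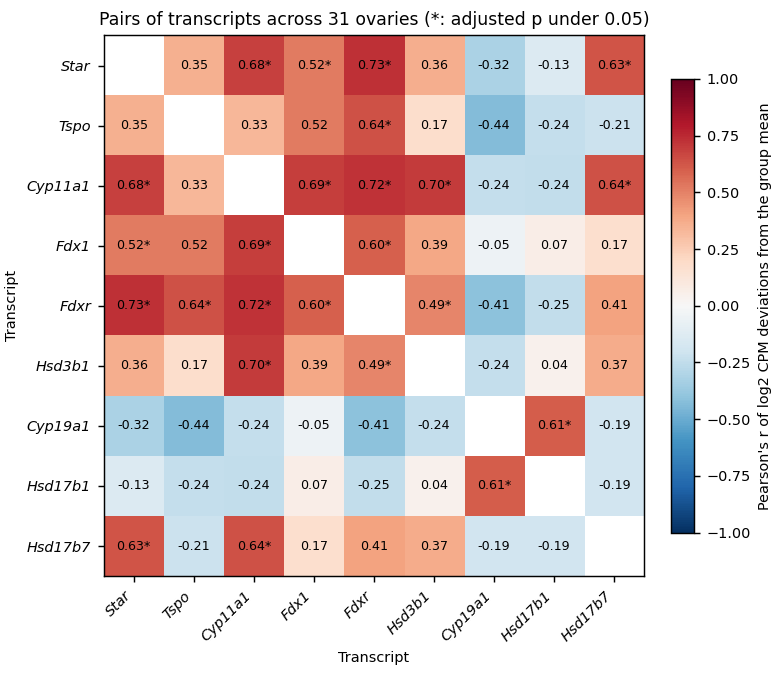
Pearson's r of log2 CPM deviations from the group mean for each pair of 9 transcripts over 31 ovaries, red above 0 and blue below, with a star where the permutation p adjusted over 36 pairs is under 0.05. Cyp11a1 is starred with Star, Fdx1, Fdxr, Hsd3b1 and Hsd17b7, and Cyp19a1 with Hsd17b1 only.

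The genes most like each member over the 31 ovaries, by the same r, were taken as up to 3 for each member. No member was among the genes taken for another. Hsd17b7 was closest to Baiap3 (0.96), Aatk (0.93) and Dpysl4 (0.93), and Star to Plcb2 (0.90), Prune (0.90) and Myo7a (0.89). Tspo was closest to Rnh1 (0.94), Cstb (0.92) and Grhpr (0.91), and Cyp11a1 to Aes (0.88), Idh1 (0.86) and Txndc2 (0.85). Fdx1 was closest to Cox6b1 (0.86), Mrps34 (0.84) and Atp5o (0.83), Fdxr to Samm50 (0.89), Smpdl3b (0.86) and Nt5c (0.86), and Hsd3b1 to Iars2 (0.85), Rtn4ip1 (0.79) and Sdha (0.79). Hsd17b1 was closest to St3gal4 (0.94), Nap1l5 (0.93) and the inhibin subunit Inha (0.91), and Cyp19a1 to Mro (0.84) and Tubgcp5 (0.82). Cyp11b1 was closest to Lpcat3 (0.89), Prss35 (0.88) and Mmp19 (0.87).

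The other genes of the pathway came from lists fixed with the members. Of 20 partners of import and side-chain cleavage, 1 rose and 2 fell in the 4-set mean, shares near those of all genes (8.86% rose and 11.5% fell): the lysosomal lipase Lipa (-0.31 ± 0.08, edgeR adjusted p = 0.00504), the cholesterol carrier Npc2 (-0.28 ± 0.10, 0.0413) and the mitochondrial ATPase Atad3a (0.08 ± 0.03, 0.0338). Of 20 genes of cholesterol synthesis 1 fell, Hmgcs1, which feeds the pathway with its first dedicated precursor (-0.54 ± 0.15, edgeR adjusted p = 0.0133). The median fold of this list was -0.34 and -0.62 in the younger mice (8 then 12 weeks) and 0.54 and -0.28 in the older. Of these genes 1 fell in 2M-12W (4.15% of all genes fell) and 1 rose in 6M-12W (5.18% rose). None passed in edgeR in 2M-8W or 6M-8W. The Hsd17b7 folds, given above, had the same signs as these medians.

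Among 16 tested of 22 other steroid-converting enzymes, 1 rose and 2 fell in the 4-set mean. These shares are near those of all genes (8.86% rose and 11.5% fell). Cyp17a1, which makes androgens in theca cells and so supplies aromatase, rose by 1.21 ± 0.36 (edgeR adjusted p = 0.0172, 13 of 16). Hsd3b6 fell by 0.68 ± 0.12 (edgeR adjusted p = 0.000339). Hsd3b6 is a low-count gene of the Hsd3b1 family, and how any reads they share were assigned is uncertain. Of 20 receptors and regulators 7 rose and 6 fell (against 8.86% and 11.5% of all genes), led by Runx1 (-0.84 ± 0.16, edgeR adjusted p = 0.000518), Runx2 (-1.71 ± 0.35, 0.00103), both transcription factors, and the prolactin receptor Prlr (-0.62 ± 0.14, 0.00191). Prlr is also 1 of the 6 luteal markers.

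The pituitary libraries, made from the same series, gauge how much ovarian RNA could have crossed between samples. Hsd3b1, the most abundant member in ovary, was at 0 CPM in 12 of 32 pituitaries: all 4 controls of 6M-8W and all 8 libraries of 6M-12W. It was at 3.91, 3.89, 3.67 and 3.24 CPM in the 6M-8W CUMS pituitaries, and between 1.16 and 7.26 in the 2-month sets. Cyp11a1 followed it, with 0.228, 0.238, 0.301 and 0.356 CPM in 6M-8W controls and 2.45, 2.29, 1.71 and 3.38 in CUMS pituitaries. Cyp19a1 was at most 0.173 CPM and Cyp11b1 at most 0.0455. Star (median 1.53 CPM), Hsd17b1 (0.912) and Hsd17b7 (5.001) were low, whereas Tspo (25.4), Fdx1 (12.9) and Fdxr (11.9) had levels in every pituitary. Against medians of 6827 CPM of Hsd3b1 and 5547 of Cyp11a1 in ovary, the pituitary levels were at most 7.26 and 7.20.

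**Figure D5:**
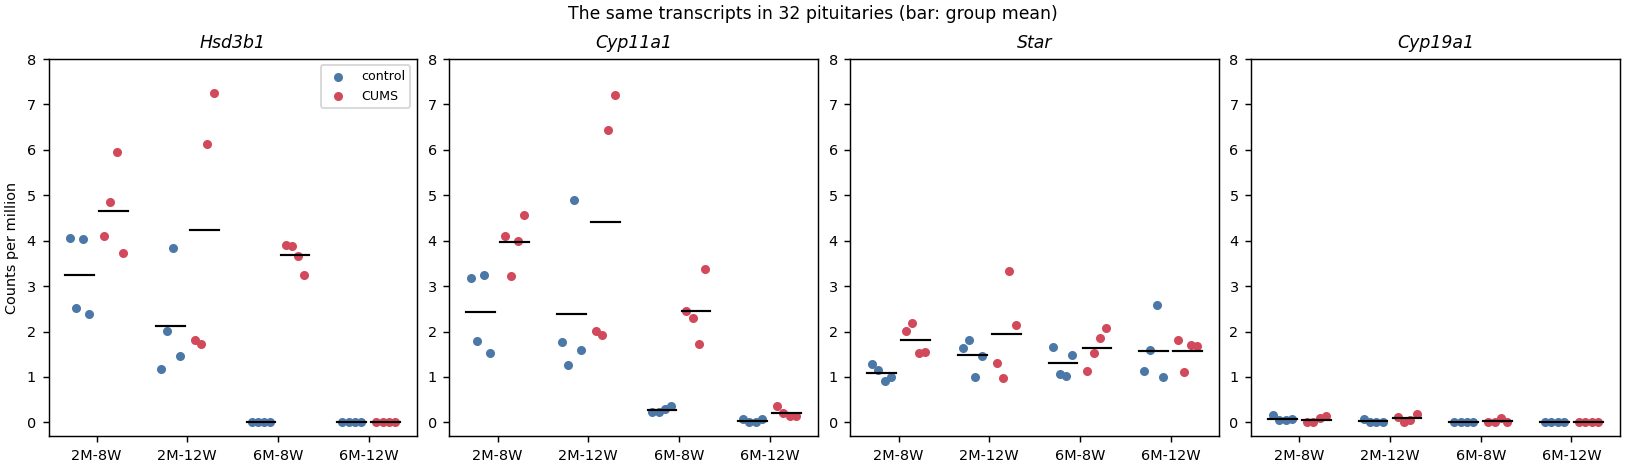
CPM of Hsd3b1, Cyp11a1, Star and Cyp19a1 in each of 32 pituitary libraries by set, control blue and CUMS red, with a bar at the group mean. Hsd3b1 is at 0 in 6M-8W controls and in both arms of 6M-12W and at 3.24 to 3.91 in 6M-8W CUMS, and Cyp19a1 stays at or under 0.173.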

How the data were processed

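RNA from ovaries and pituitaries was sequenced with NEBNext Ultra II libraries, per the labels' protocols. For each tissue the authors deposited raw read counts per gene and FPKM values, per the file headers. The table's gene positions match GRCm38, with aligner, counter and strand setting not given in the sources used here. The deposited FPKM equalled count per gene length and library total within 1% in 100% of 420558 values checked. FPKM served only to compare levels between genes.

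Counts of 31 ovary libraries were fitted in 1 model of 8 groups with edgeR 4.0.16 (R 4.3.3): filterByExpr (17766 of 34745 genes kept), TMM factors (0.961 to 1.06), and the quasi-likelihood F test (biological coefficient of variation 0.207). Benjamini-Hochberg adjustment ran over all genes tested. SE was taken as log2 fold over the root of F. CPM is per library total, in both tissues. The closest of 45 library pairs within groups had a chi-square over degrees of freedom of 10.5. The members, the gene and marker lists and the alternatives were chosen with earlier results of these data known. All 10 members are described, and of each pathway list the 3 genes of smallest p that passed in the 4-set mean. The fits were tested on simulated data. The genes most like a member had the highest r of log2 CPM deviations (prior count 2). Pairs of members were tested with 100000 permutations. Alternatives were DESeq2 1.42.0, RLE factors, library totals, no filter, own groups only, a replicate block, and libraries left out. Windows came from RefSeq promoters, which matched 6 of 10 members. Replicate numbers were checked as pairs by the correlation of deviations. In 2M-8W all 4 pairs were over 0.1 (0.111 to 0.310), and over the other sets it ran from -0.44 to 0.18. No label says that a replicate number marks a shared animal, cage or day, so whether the numbers pair 2M-8W is not known. The rule for named genes also picked 2 genes that are not reported here.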

Additional observations from a re-analysis of the deposited data

Results flagged for a closer look

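In groups of 4, 9 of 70 had 1 library beyond Dixon's limit, applied to CPM. Chance flags about 1 in 20 only for independent, normally distributed values. CPM can be skewed and the members share libraries, so no excess is read from this count. Hsd17b7 gave 3 of them: 3185 CPM in 2M-12W control 3 (the others at 318 to 387), 963 in 2M-12W CUMS 1 (the others at 36.6 to 55.2) and 74.3 in 2M-8W CUMS 4 (the others at 42.5 to 46.7). Cyp11b1 gave a high library, 17.0 CPM in 2M-8W control 2 (0.418 to 2.70 in the others), and a low one, 0.840 in 6M-8W control 3 (17.1 to 18.6 in the others). The rest were Cyp19a1 at 19.2 CPM in 2M-12W CUMS 1, the ovary with the high Hsd17b7, Fdx1 at 574 in 6M-12W CUMS 2, Hsd3b1 at 5349 in 2M-12W control 4 and Hsd17b1 at 140 in 6M-8W control 3.

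The stress effect at 6 months differed between 12 and 8 weeks for Star (-2.62) and Hsd17b7 (-5.42) by the test of the difference itself. In that comparison 8.74% of all genes passed. The Star call (edgeR adjusted p = 0.0480) is lost in 15 of 21 alternatives, and the Hsd17b7 call without 6M-12W control 2 (edgeR adjusted p = 0.0653). In the pituitary, which no comparison of the report uses, the CUMS ranges of these lay above all controls of their set, with a mean of at least 1 CPM: Hsd3b1 in 6M-8W (3.68 ± 0.31 CPM, SD, n = 4, against 0), Cyp11a1 in 6M-8W (2.46 ± 0.69 against 0.281 ± 0.060), Star in 2M-8W (1.82 ± 0.33 against 1.08 ± 0.17) and Tspo in 2M-12W (32.5 ± 1.28 against 27.1 ± 1.51). Below that level Cyp11a1 in 6M-12W was also higher (0.137 to 0.364 CPM against at most 0.0665). The opposite order was found for Fdxr in 6M-8W (9.75 to 12.6 against 12.8 to 16.6) and Hsd17b1 in 6M-12W (0.209 to 0.617 against 0.740 to 1.17). The share of all pituitary genes with ranges apart was not computed, so no excess is read from these cases. The sources of these differences were not tested.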

How the results depend on the processing

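Of 969 folds recomputed for 52 member folds, Cyp11b1 included, 882 kept direction and side of the threshold. The threshold was lost by 49 and gained by 18, and 20 changed sign, all short of it on both occasions. Members past the threshold, Cyp11b1 included here, by setting: with DESeq2 3 (2M-12W), 1 (6M-8W) and 1 (age difference at 8 weeks); with own groups only 0 (2M-8W), 0 (2M-12W) and 2 (6M-12W); without the 2M-8W CUMS ovaries 1 and 3, 0 (2M-8W) and 3 (4-set mean). With no filter the 6-month duration difference had 1. Leaving out 1 library gave 0 to 4 (2M-8W), 0 to 5 (2M-12W), 0 to 1 (6M-8W), 0 to 1 (6M-12W), 3 to 6 (4-set mean), 0 to 2 (6-month duration difference) and 0 to 1 (age difference at 8 weeks). With library totals Hsd3b1 in 6M-12W was 0.032. Folds that changed sign when 1 library was left out ran, in log2, from -0.28 to 0.15 (Tspo, 6M-12W), -0.20 to 0.016 (Fdx1, 2M-12W), -0.086 to 0.17 (Fdx1, 6M-8W), -0.11 to 0.061 (Fdxr, 6M-8W), -0.18 to 0.052 (Fdxr, 6M-12W), -0.11 to 0.029 (Hsd3b1, 6M-8W), -0.15 to 0.22 (Hsd3b1, 6M-12W), -0.074 to 0.018 (Hsd3b1, mean), -0.81 to 0.27 (Cyp19a1, 2M-8W) and -0.11 to 0.45 (Cyp19a1, 6M-12W). The calls of Cyp11b1 in the counts above are not read as tests. Causes were not tested.

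Only in 2M-8W were all same-numbered samples positively correlated, and no label says that the numbers mark pairs. With the replicate block, and Cyp11b1 again included, 1 member passed in 6M-8W (Cyp11b1, not read as a test) and 1 in the 6-month duration difference (Hsd17b7). The other counts, also with Cyp11b1 included, were 2, 1, 1 and 5 (2M-8W, 2M-12W, 6M-12W and the mean). Depth limits Cyp11b1, whose CUMS ovaries held 9 to 61 reads a group. With 3 or 4 libraries a group, small changes of Star, Cyp19a1 and Hsd17b7 could not be detected at their spread.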
